A study of Arabidopsis thaliana with 12 samples.

Results

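The genes described here are 7 genes of the salicylate branch of plant defence in Arabidopsis thaliana, namely PR1 (AT2G14610), BGL2 (AT3G57260, the gene of PR2), PR5 (AT1G75040), ICS1 (AT1G74710, named EDS16 in the deposited tables), NPR1 (AT1G64280), PAD4 (AT3G52430) and EDS1 (AT3G48090). They were chosen by name and locus, and every accessible region that the deposited region annotation for 14 h or 2.5 h gives to them was taken, 29 regions in all. Of these, 20 were counted in all 12 libraries, and the 7 genes stand among 30147 genes with at least 1 such region. The assay was ATAC-seq, in which the transposase Tn5 cuts open chromatin, so a read count measures how accessible a stretch of DNA was and not how much RNA a gene made.

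The 12 libraries form 4 groups of 3, all from roots of plants 7 days after sowing. In the groups at 2.5 h, 14 h and 16 h after excision, about 130 µm of the tip was cut off plants of the MP::MP-GFP line, and protoplasts from about 200 µm above the cut were sorted on GFP. In that line the promoter of MONOPTEROS, an auxin response factor of the inner root tissues, drives MP fused to GFP, so the sort keeps MP-GFP cells only. The uncut group came from Col-0 roots, where a piece of the same size was taken and cells were sorted on 1 µM DAPI, a stain for DNA in any cell. Uncut libraries used 50000 nuclei, and those after excision 1000, except the third library at 16 h with 2000. Excision, plant line, sorted cell population and number of nuclei therefore change together between any time point and uncut roots, and their parts in a difference cannot be told apart. In such bulk samples a smaller share of a cell type and less open chromatin per cell cannot be told apart either.

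Salicylate is a defence hormone that plants make mainly from isochorismate after pathogen attack. ICS1 is the chloroplast enzyme that makes isochorismate from chorismate. EDS1 forms complexes with PAD4 that relay signals from intracellular immune receptors and raise ICS1 expression, and NPR1 binds salicylate and, with TGA transcription factors, switches on PR1, PR2 and PR5. These genes are best known from leaves, and in roots salicylate is known to act on growth and on which bacteria colonise the root.

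Libraries held 1.83 to 4.78 M reads in regions at 2.5 h, 10.7 to 17.3 M at 14 h and 1.44 to 2.35 M at 16 h, against 22.5 to 31.8 M in uncut roots. At 2.5 h, 27.4% to 37.3% of the shared regions had no read, against 0% in each uncut library, and read counts of regions in pairs of 2.5 h libraries had rank correlations of 0.0069 to 0.101, against 0.935 to 0.956 between uncut libraries. Every shared region belongs to the region set of the uncut libraries, which the 16 h libraries share (107842 regions). The 0% in uncut roots can therefore follow from how regions entered. The part of that entry in the falls below was not tested. The standard error of the log2 fold change of each of the 7 genes was largest at 2.5 h. Single marker genes of the sorted tissue and of others also moved. Of 6 stele genes, 1 passed at 14 h and at 16 h, MP, the gene that the MP::MP-GFP transgene also carries. MP had means of 348 CPM at 14 h and 325 CPM at 16 h, against 146 CPM in uncut roots (CPM, reads per 1 M on a scale common to all libraries). The median log2 fold change of those 6 genes was -0.02 at 14 h and 0.24 at 16 h. Their summed level, which includes MP, was 743 to 826 CPM at 14 h and 763 to 862 CPM at 16 h, against 570 to 618 CPM in uncut roots. The sum without MP was not computed. The summed level of 5 endodermis and cortex genes was 267 to 282 CPM at 14 h and 239 to 289 CPM at 16 h, against 343 to 390 CPM in uncut roots, with 2 of the 5 lower at each time. That of 4 leaf genes was 185 to 209 CPM at 14 h and 169 to 196 CPM at 16 h, against 252 to 269 CPM in uncut roots, with 2 of the 4 lower at each time. The 6 epidermis and root hair genes summed to 260 to 292 CPM at 14 h and 270 to 301 CPM at 16 h. In uncut roots they summed to 309 to 344 CPM, and GL2 was lower at both times. The 4 root cap genes summed to 120 to 158 CPM at 14 h and 94.7 to 148 CPM at 16 h. Those sums overlapped the 121 to 128 CPM of uncut roots, and FEZ was higher at 14 h. Of all genes, 8.01% fell and 3.99% rose at 14 h, and 6.36% fell and 3.16% rose at 16 h. No marker gene of these lists was at 0 in a library at 14 h, at 16 h or in uncut roots, and the part of such shifts in the values below was not tested.

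Accessibility fell at PR5 and BGL2 at 14 h and at NPR1 and PR5 at 16 h. The mean of PR1 was lower at each time and the means of PAD4 and EDS1 higher, none past the test at any time. At 2.5 h PAD4 and EDS1 each had a library below all uncut ones. The libraries of ICS1 overlapped those of uncut roots at each time. With edgeR's quasi-likelihood test over all genes and Benjamini-Hochberg adjustment, 0 of the 7 genes changed at 2.5 h, where 0.00663% of all genes rose and 0.315% fell. There 2 of the 7 and 3211 of all genes had an unadjusted p under 0.05. At 14 h, 2 of the 7 fell (PR5 and BGL2) and 0 rose, where 8.01% of all genes fell and 3.99% rose. At 16 h, 2 of the 7 fell (NPR1 and PR5) and 0 rose, where 6.36% of all genes fell and 3.16% rose. Without any 1 uncut library 0 of the 7 passed at 14 h and 1 at 16 h, NPR1. The number of all genes that passed also moved with the library left out. Without 1 uncut library it was 931 to 1265 at 14 h and 618 to 757 at 16 h. Without 1 library after excision it was 4921 to 6670 at 14 h and 3896 to 5221 at 16 h. With all libraries it was 3620 and 2868. The median log2 fold change of the 7 genes was -0.35 at 2.5 h, -0.37 at 14 h and -0.14 at 16 h, beside -0.0008, 0.05 and 0.03 over all genes tested. Without any test, the libraries of 2 genes did not overlap those of uncut roots at 2.5 h (PR1 and NPR1, both lower, as in 15.4% of all genes, with 9.16% higher). At 14 h this held for 5 genes, with PR1, BGL2 and PR5 lower, as in 19.5% of all genes, and PAD4 and EDS1 higher, as in 18.2%. At 16 h it held for 4, with PR1, PR5 and NPR1 lower, as in 17.8% of all genes, and PAD4 higher, as in 15.3%. DESeq2, run beside edgeR, called PR1 and NPR1 at 2.5 h, PR1, BGL2, PR5 and PAD4 at 14 h, and PR1, PR5 and NPR1 at 16 h, in the directions given below. DESeq2 called 4.56% of all genes lower and 4.16% higher at 2.5 h, 11.9% lower and 7.99% higher at 14 h, and 10.7% lower and 8.98% higher at 16 h.

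**Figure D1:**
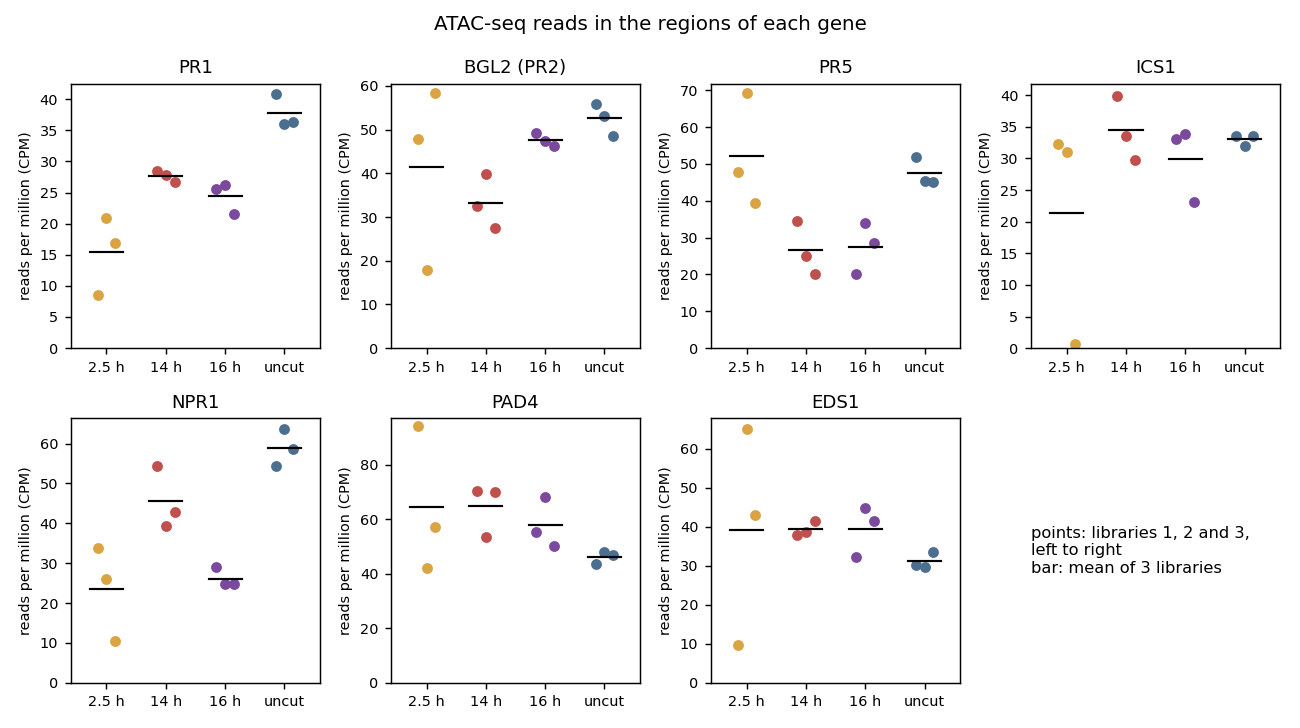
Reads in the regions of each gene counted in all 12 libraries, in CPM on a linear axis that starts at 0, with 1 point per library for the groups at 2.5 h, 14 h and 16 h after excision and for uncut roots; the bar is the mean of 3 libraries. All 9 PR1 points after excision lie below the 3 uncut points, and the points at 2.5 h are the most scattered.

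The 3 PR genes, the outputs of the pathway, encode secreted proteins. PR1 is the standard marker of salicylate signalling and belongs to the CAP protein family. It had 8.46, 20.8 and 16.9 CPM at 2.5 h, 28.4, 27.7 and 26.7 CPM at 14 h and 25.6, 26.3 and 21.5 CPM at 16 h, against 40.9, 36.1 and 36.3 CPM in uncut roots. Every library after excision was below every uncut library, which held for 1 of the 7 genes and for 4.76% of all genes. The means were 0.408 of the uncut mean at 2.5 h, 0.732 at 14 h and 0.648 at 16 h. The log2 fold changes were -1.31 ± 0.41 at 2.5 h (SE; edgeR adjusted p = 0.315), -0.45 ± 0.14 at 14 h (edgeR adjusted p = 0.0742) and -0.61 ± 0.18 at 16 h (edgeR adjusted p = 0.0533), so PR1 did not pass at any time. It passed without the first library at 14 h (edgeR adjusted p = 0.0354) and without the second at 16 h (edgeR adjusted p = 0.0363), and the edgeR adjusted p without 1 library otherwise lay between 0.061 and 0.329 at 14 h and between 0.0572 and 0.274 at 16 h.

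PR1 was counted through 2 regions. One spans 366 bp of its single exon (TAIR10, chromosome 2, 6242006 to 6242371; centre 353 bp downstream of the start). It had 8.46, 13.2 and 16.9 CPM at 2.5 h, 19.4, 21.3 and 21.1 CPM at 14 h and 10.8, 16.7 and 13.5 CPM at 16 h, against 34.4, 29.1 and 28.3 CPM in uncut roots. The exon did not overlap uncut roots at any time. Tested over all regions, it fell at 16 h (log2 fold change -1.14 ± 0.25, SE; edgeR adjusted p = 0.0162), one of 3 of the 20 regions of these genes to fall there, where 6.75% of all regions fell and 2.17% rose. The call was lost without any 1 uncut library (edgeR adjusted p = 0.151, 0.115 and 0.0951). With only regions within 1 kb of a start, which leaves this exon alone, the gene PR1 was called lower at 16 h. In that count 1678 of all genes were called. The exon stood at -1.26 ± 0.35 at 2.5 h (edgeR adjusted p = 0.123) and at -0.57 ± 0.17 at 14 h (edgeR adjusted p = 0.096). The authors' deposited table gives this exon a log2 fold change of -0.92 at 14 h (adjusted p 5.55e-05) and -1.64 at 2.5 h (adjusted p 0.00319). For 2.5 h it lists, of these genes' regions, only this exon and a region in exon 4 of NPR1. The share of all regions lower there was not computed.

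The second PR1 region is intergenic (chromosome 2, 6236844 to 6236964), 5637 bp downstream of the start, and was given to PR1 as the nearest gene. It had 0, 7.66 and 0 CPM at 2.5 h, 9.02, 6.44 and 5.59 CPM at 14 h and 14.8, 9.59 and 7.96 CPM at 16 h, against 6.51, 6.99 and 7.95 CPM in uncut roots. Its log2 fold change was -1.47 ± 1.75 at 2.5 h (SE; edgeR adjusted p = 0.9999), -0.03 ± 0.30 at 14 h (edgeR adjusted p = 0.966) and 0.60 ± 0.32 at 16 h (edgeR adjusted p = 0.281). The sign was that of the exon at 2.5 h and 14 h and the opposite at 16 h. The difference between the 2 regions was not tested.

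BGL2, the gene of the beta-1,3-glucanase PR2 that breaks down a wall polymer of fungi and of plant callose, was counted through 1 region of 767 bp in exon 2 of 2 (chromosome 3, 21188866 to 21189632). It had 47.9, 17.9 and 58.5 CPM at 2.5 h, 32.5, 39.9 and 27.4 CPM at 14 h and 49.2, 47.5 and 46.2 CPM at 16 h, against 55.9, 53.1 and 48.7 CPM in uncut roots. Only at 14 h did all 3 libraries lie below all 3 uncut libraries. BGL2 fell at 14 h (log2 fold change -0.66 ± 0.16, SE; edgeR adjusted p = 0.0332), and stood at -0.35 ± 0.42 at 2.5 h (edgeR adjusted p = 0.854) and at -0.14 ± 0.14 at 16 h (edgeR adjusted p = 0.552). The call at 14 h was lost without any 1 uncut library (edgeR adjusted p = 0.181, 0.152 and 0.103).

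PR5, a thaumatin-like protein, was counted through 1 region of 621 bp in exon 2 of 2 (chromosome 1, 28178075 to 28178695). It had 47.7, 69.3 and 39.5 CPM at 2.5 h, 34.4, 25.02 and 20.1 CPM at 14 h and 20.2, 33.8 and 28.7 CPM at 16 h, against 51.9, 45.5 and 45.1 CPM in uncut roots. The libraries at 14 h and at 16 h were all below those of uncut roots and below those at 2.5 h, while the 2.5 h libraries spread on both sides of the uncut ones. PR5 fell at 14 h (log2 fold change -0.85 ± 0.20, SE; edgeR adjusted p = 0.0298) and at 16 h (-0.77 ± 0.20; edgeR adjusted p = 0.0373), and stood at 0.14 ± 0.26 at 2.5 h (edgeR adjusted p = 0.923). Its mean was 0.558 of the uncut mean at 14 h and 0.581 at 16 h. The call of PR5 held in 8 of 11 alternatives at 14 h and in 7 of 10 at 16 h. Both calls were lost without any 1 uncut library (edgeR adjusted p = 0.17, 0.112 and 0.1 at 14 h, and 0.224, 0.168 and 0.149 at 16 h), at 14 h also without the second library there (0.0562), and at 16 h without the first there (0.0571).

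As single regions in the test over all regions, the BGL2 and PR5 exons missed the threshold at 14 h (edgeR adjusted p = 0.0774 and 0.0681). The PR5 exon missed it at 16 h as well (edgeR adjusted p = 0.0656). The gene tests of BGL2 and PR5 use the reads of these same exons. The authors' deposited table lists both as lower at 14 h, with log2 fold changes of -1.02 (adjusted p 7.78e-06) and -1.21 (adjusted p 3.48e-06). Over the 20 regions of the 7 genes shared by all libraries, the fold changes in the authors' deposited table were lower than those computed here by a median of 0.36 on the log2 scale, within a narrow range (difference -0.36 to -0.32). On the authors' scale, 6 of these 20 regions were lower and 0 higher at an adjusted p under 0.05, where 19.5% of all shared regions in the authors' deposited table were lower and 1.11% higher.

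**Figure D2:**
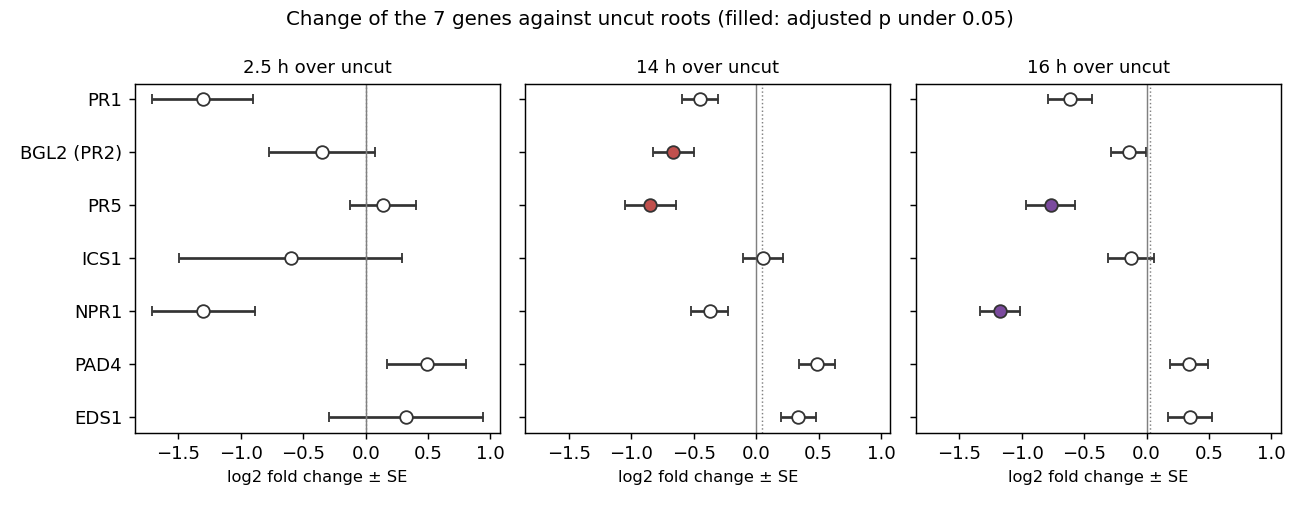
Log2 fold change of each gene with its standard error, at 2.5 h, 14 h and 16 h over uncut roots; filled points passed an edgeR adjusted p of 0.05 and the dotted line is the median of all genes. PR5 passed at 14 h and 16 h, BGL2 at 14 h and NPR1 at 16 h, all on the lower side.

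NPR1, the salicylate receptor and coactivator of PR genes, had the most regions of the 7 genes, with 7 counted in all libraries. It had 33.8, 25.9 and 10.6 CPM at 2.5 h, 54.5, 39.4 and 42.7 CPM at 14 h and 28.99, 24.7 and 24.7 CPM at 16 h, against 54.4, 63.6 and 58.7 CPM in uncut roots. The libraries at 2.5 h and 16 h lay below all uncut ones, while at 14 h the highest library overlapped the uncut range. NPR1 fell at 16 h (log2 fold change -1.17 ± 0.16, SE; edgeR adjusted p = 0.00181), to 0.444 of the uncut mean, and the call held without any 1 of the 6 libraries (edgeR adjusted p between 0.00147 and 0.0248). It stood at -1.30 ± 0.41 at 2.5 h (edgeR adjusted p = 0.324) and at -0.37 ± 0.15 at 14 h (edgeR adjusted p = 0.141), where it passed without the first library there (edgeR adjusted p = 0.019). It did not pass without any other library (0.204 to 0.429).

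The regions of NPR1 are given here by their place in the gene. The 4 at its end, which the annotation puts in exon 4 of 4 or at the transcription end, summed to 15.1, 14.0 and 0 CPM at 2.5 h, 8.38, 10.7 and 9.32 CPM at 14 h and 6.74, 4.54 and 6.37 CPM at 16 h, against 29.1, 36.4 and 32.9 CPM in uncut roots. The 2 in the middle, in exons 3 and 4, summed to 13.8, 8.93 and 10.6 CPM at 2.5 h, 25.1, 17.5 and 14.8 CPM at 14 h and 13.5, 17.2 and 12.7 CPM at 16 h, against 17.0, 19.7 and 17.0 CPM in uncut roots. The 1 at the start, centred 126 bp downstream of it (chromosome 1, 23855469 to 23855596), had 4.87, 2.98 and 0 CPM at 2.5 h, 20.95, 11.3 and 18.6 CPM at 14 h and 8.76, 3.03 and 5.57 CPM at 16 h, against 8.24, 7.60 and 8.83 CPM in uncut roots. At 14 h, then, the end of the gene was below uncut roots in every library and the start was above them in every library, while the middle overlapped. This grouping of the 7 regions was made after their values were seen, and the difference between start and end was not tested.

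The region farthest down, at the transcription end (chromosome 1, 23852063 to 23852446), fell at 14 h, with 2.41, 5.33 and 6.21 CPM against 16.9, 21.2 and 18.3 CPM in uncut roots (log2 fold change -2.00 ± 0.35, SE; edgeR adjusted p = 0.0157). It was the only one of the 20 regions of these genes to fall at 14 h, where 5.47% of all regions fell and 0.717% rose. It also fell at 16 h, with 2.70, 4.04 and 0 CPM against the same uncut values (log2 fold change -2.90 ± 0.47, SE; edgeR adjusted p = 0.00402). Those are only 4, 8 and 0 reads at 16 h, against 450, 455 and 355 reads in uncut roots. Without 1 uncut library the edgeR adjusted p was 0.0832, 0.0964 and 0.0796 at 14 h and 0.0521, 0.0517 and 0.0435 at 16 h. The next gene on that side is AT1G64270, a pseudogene in RefSeq's gene table, and its part in these reads was not tested.

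A second end region, 63 bp of exon 4 (chromosome 1, 23852830 to 23852892), had no read in any library at 2.5 h or at 16 h, and 2.29, 0.991 and 1.48 CPM at 14 h, against 4.03, 5.27 and 4.75 CPM in uncut roots. A floor of 3 reads per group of 3 libraries puts it 11.97-fold lower at 2.5 h and 7.37-fold lower at 16 h. That floor allows for random sampling of reads only. At 2.5 h, 27.4% to 37.3% of all shared regions had no read, so the floor sets no least fold change. The region fell at both times (edgeR adjusted p = 0.0111 and 0.0107). Its call at 2.5 h held in 6 of 7 alternatives and was lost with replicate number in the fit (edgeR adjusted p = 0.856). At 2.5 h it was the only one of the 20 regions to fall, where 7.72% of all regions fell and 0.191% rose. The authors' deposited table also lists it as lower at 2.5 h (adjusted p 0.0074), where, of these genes' regions, it lists only this one and the PR1 exon.

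The start region of NPR1 stood at a log2 fold change of 1.04 ± 0.28 at 14 h (SE; edgeR adjusted p = 0.0739), -1.60 ± 1.18 at 2.5 h (edgeR adjusted p = 0.876) and -0.56 ± 0.39 at 16 h (edgeR adjusted p = 0.415). At 14 h it passed without the second library there (edgeR adjusted p = 0.0135). It did not pass without the first or the third (0.0634 and 0.0997) or without any 1 uncut library (0.246 to 0.318). When only regions within 1 kb of a start were used, the gene value of NPR1 at 14 h reversed to 1.04 (edgeR adjusted p = 0.0696, between 0.0495 and 0.971 over 11 alternatives), and at 16 h it was -0.55 with the call lost (edgeR adjusted p = 0.41, between 3.36e-09 and 0.41 over 10 alternatives). By the gene name column alone NPR1 was called higher at 14 h, the opposite direction (log2 fold change 1.04; edgeR adjusted p = 0.0495), and its call at 16 h was lost (-0.56; edgeR adjusted p = 0.382). The call at 16 h was also lost with all 12 libraries in 1 fit (edgeR adjusted p = 0.225). The annotation also counts the start region to the end of AT1G08667, a noncoding RNA gene inside NPR1. For each of the other NPR1 regions counted in all libraries, the annotation names AT1G08667 as the nearest gene. Those regions were given to NPR1 by the locus in the annotation. Reads of the pair cannot be told apart in such data, at the start or elsewhere in NPR1.

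**Figure D3:**
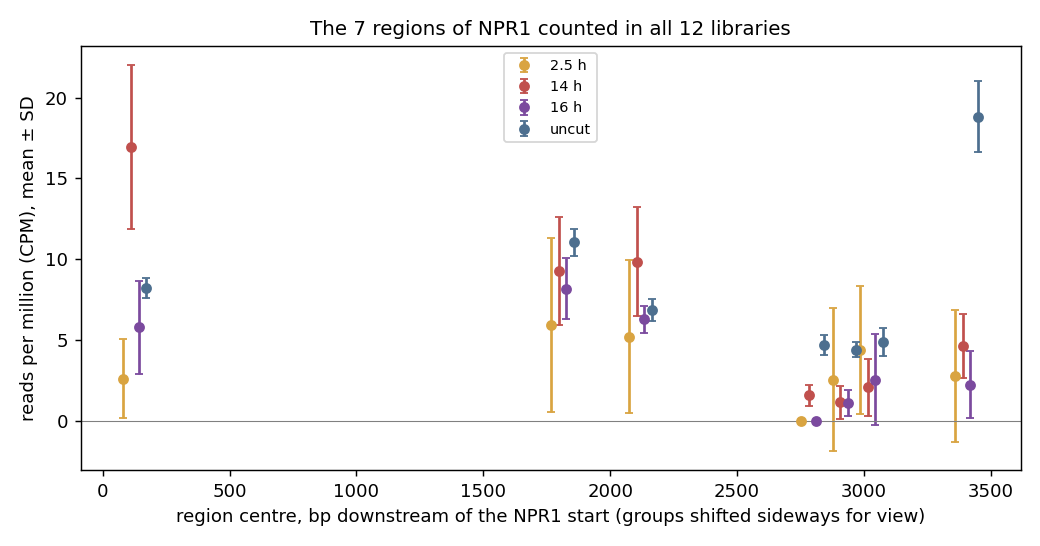
Mean CPM with SD of 3 libraries for the 7 regions of NPR1 counted in all 12 libraries, by the distance of the region's centre downstream of the gene's start. The start region at 126 bp was highest at 14 h, at 17.0 CPM against 8.23 CPM in uncut roots, and the last region at 3404 bp was lower at 14 h, at 4.65 CPM against 18.8 CPM in uncut roots.

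ICS1, the enzyme that makes isochorismate from chorismate, did not pass at any time. It was counted through 2 regions, in exons 2 and 3 of 13 (chromosome 1, 28070626 to 28070952 and 28071518 to 28071865). It had 32.3, 31.1 and 0.705 CPM at 2.5 h, 39.9, 33.6 and 29.8 CPM at 14 h and 33.0, 33.8 and 23.1 CPM at 16 h, against 33.6, 32.0 and 33.6 CPM in uncut roots. The ranges overlapped at each time, and the lowest value is 1 read in the third library at 2.5 h. The log2 fold changes were -0.60 ± 0.89 at 2.5 h (SE; edgeR adjusted p = 0.893), 0.06 ± 0.16 at 14 h (edgeR adjusted p = 0.844) and -0.12 ± 0.18 at 16 h (edgeR adjusted p = 0.704). Exons 2 and 3 had means of 7.30 and 14.1 CPM at 2.5 h, 17.5 and 16.9 CPM at 14 h and 14.9 and 15.1 CPM at 16 h, against 15.9 and 17.2 CPM in uncut roots. The wider gap between the exons was at 2.5 h.

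PAD4, the lipase-like partner of EDS1, had 94.3, 42.1 and 57.1 CPM at 2.5 h, 70.5, 53.5 and 70.1 CPM at 14 h and 55.3, 68.2 and 50.2 CPM at 16 h, against 43.7, 47.9 and 46.7 CPM in uncut roots. All libraries at 14 h and 16 h were above all uncut ones. The log2 fold changes were 0.49 ± 0.32 at 2.5 h (SE; edgeR adjusted p = 0.675), 0.49 ± 0.14 at 14 h (edgeR adjusted p = 0.0549) and 0.34 ± 0.15 at 16 h (edgeR adjusted p = 0.181). PAD4 passed at 14 h without the second library there (edgeR adjusted p = 0.0141), and not without the first or the third (0.0546 and 0.0871) or any 1 uncut library (0.181 to 0.242). It also passed on the scale of total counts without TMM (edgeR adjusted p = 0.0284, between 0.00652 and 0.804 over 11 alternatives).

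Of the 2 PAD4 regions in all libraries, the one nearer the start (exon 1 of 2, chromosome 3, 19431610 to 19431849) had 44.4, 11.02 and 30.2 CPM at 14 h and 11.5, 29.8 and 18.3 CPM at 16 h, against 12.4, 11.4 and 11.6 CPM in uncut roots. It stood at a log2 fold change of 1.28 ± 0.44 at 14 h (SE; edgeR adjusted p = 0.144), with 1 library at the uncut level, and passed without that library, the second (edgeR adjusted p = 0.0083). It did not pass without the first or the third (0.183 and 0.191) or without any 1 uncut library (0.379 to 0.426). The longer one is 689 bp of exon 2 (19432941 to 19433629). It had means of 36.1 CPM at 14 h and 38.0 CPM at 16 h, against 34.4 CPM in uncut roots, with overlapping libraries at both times. At 2.5 h the longer region had 90.2, 33.2 and 43.0 CPM, and the one nearer the start had 4.10, 8.93 and 14.1 CPM. By the gene name column alone, which leaves exon 2 out, PAD4 stood at -0.40 at 2.5 h.

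EDS1, which pairs with PAD4 or with SAG101, had 9.74, 65.1 and 43.0 CPM at 2.5 h, 38.0, 38.6 and 41.6 CPM at 14 h and 32.4, 44.9 and 41.4 CPM at 16 h, against 30.3, 29.7 and 33.6 CPM in uncut roots. The 14 h libraries were all above the uncut ones, and those at 16 h overlapped by 1 library. The log2 fold changes were 0.32 ± 0.62 at 2.5 h (SE; edgeR adjusted p = 0.924), 0.34 ± 0.14 at 14 h (edgeR adjusted p = 0.145) and 0.35 ± 0.18 at 16 h (edgeR adjusted p = 0.221). Of its 5 regions, 2 lie nearest to the start of AT3G48080, the near-identical neighbour EDS1B, and were given to EDS1 by its transcription end, so reads there are of uncertain origin. Counted by the gene name column alone, which leaves those regions out, EDS1 stood at 0.43 at 14 h (edgeR adjusted p = 0.344, between 0.0223 and 0.994 over 11 alternatives) and 0.64 at 16 h (edgeR adjusted p = 0.0805, between 0.0805 and 0.996 over 10 alternatives). That count keeps the region centred 151 bp downstream of the EDS1 start. The annotation also puts that region at the transcription end of AT3G48100, so its reads are of uncertain origin as well.

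Levels of different genes can be set side by side only per length of region. In uncut roots the order, in CPM per kb of region, was PR1 at 77.5 ± 5.6, PR5 at 76.5 ± 6.2, BGL2 at 68.5 ± 4.8, NPR1 at 61.0 ± 4.8, EDS1 at 59.1 ± 4.0, PAD4 at 49.7 ± 2.3 and ICS1 at 49.0 ± 1.3 (SD, n = 3). The neighbours PR1 and PR5, NPR1 and EDS1, and PAD4 and ICS1 differed by less than their SDs. PR1, PR5 and BGL2 were above 95.4%, 94.6% and 85.8% of all genes in uncut roots on this scale. At 14 h the order was EDS1 at 74.7 ± 3.7, PAD4 at 69.6 ± 10.4, PR1 at 56.7 ± 1.8, ICS1 at 51.0 ± 7.5, NPR1 at 47.2 ± 8.2, BGL2 at 43.4 ± 8.2 and PR5 at 42.7 ± 11.7 CPM per kb (SD, n = 3). At that time PR5 and BGL2 were above 12.1% and 12.9% of all genes, and EDS1 and PAD4 above 85.5% and 77.9%. Most genes lie close together on this scale, so a small change in level moves a gene's rank far.

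Comparisons between the time points leave plant line and sort the same, but not depth. Libraries held 1.83 to 4.78 M reads at 2.5 h, 10.7 to 17.3 M at 14 h and 1.44 to 2.35 M at 16 h. The third library at 16 h also used 2000 nuclei and the others 1000. The part of depth and nuclei in differences between times was not tested. In edgeR 0 of the 7 genes and 0 genes in all (0.0%) passed in each of the 3 comparisons. Among regions, 0 of these genes' regions passed in any of the 3 comparisons, where 1 of all regions rose between 16 h and 14 h (0.00107%). Between 14 h and 2.5 h, 1 of the 7 and 1773 of all genes had an unadjusted p under 0.05, and DESeq2 called 513 genes (0.765% higher and 0.942% lower) but 0 of the 7. The 1 was PR5, which at 14 h was below 2.5 h in every library (log2 fold change -0.98 ± 0.41, SE; edgeR adjusted p = 0.83). Such a fall without overlap was seen in 6.55% of all genes, and PR1 and NPR1 were higher at 14 h without overlap, as were 8.8%. Between 16 h and 2.5 h, 0 of the 7 and 1216 of all genes had an unadjusted p under 0.05, and DESeq2 called 113 genes (0.226% higher and 0.15% lower) and again 0 of the 7. There PR5 was lower at 16 h without overlap, as were 5.52% of all genes, and PR1 was higher, as were 7.14%. Between 16 h and 14 h, 1 of the 7 and 1339 of all genes had an unadjusted p under 0.05, and DESeq2 called 1 gene (0.00333%), which is none of the 7. That 1 was NPR1, which at 16 h was below 14 h in every library (log2 fold change -0.80 ± 0.31, SE; edgeR adjusted p = 0.9993). PR1 was lower as well at 16 h without overlap, which held for 5.21% of all genes, and BGL2 higher, which held for 4.82%. None of these differences between times passed, and a p that misses the threshold does not show that the levels were alike.

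A further 9 regions of the 7 genes were not in the region sets of all libraries, and all 9 were in the 14 h set. They are 2 to 150 bp wide. Of the 9, 8 were absent from the uncut set, so that a lower level in uncut roots follows from how they entered. Their uncut reads were recovered from the authors' normalized signal, in which each value is a whole number of reads over 1 factor per library. The mean level of 7 of these 8 was higher at 14 h, as was that of 98.2% of the 35256 regions in the 14 h set and not in the uncut set. Tested over all regions of the 14 h set, 6 of the 9 were called higher and 0 lower, where 23.1% of those regions rose and 7.09% fell, and all 6 are among the 8. Of all regions in the 14 h set and not in the uncut set, 80.5% were called higher, so nothing can be read from that count.

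The highest of these at 14 h was a PAD4 region of 62 bp, 625 bp upstream of the start, with 9.27, 8.92 and 10.02 CPM at 14 h against 1.07, 1.98 and 2.30 CPM in uncut roots. A PR5 region of 45 bp, 1276 bp upstream of the start, had 14.1, 3.96 and 7.38 CPM at 14 h against 1.33, 1.08 and 2.19 CPM. A 4 bp region of NPR1 at its start had 11.4, 1.49 and 4.43 CPM at 14 h against 0.0761, 0.141 and 0.209 CPM, which are 2, 3 and 4 reads. All 3 regions are in the 14 h set and not in the uncut set, so these levels describe the regions and cannot show a change at the loci. With all regions of the 14 h set in the sums, PR5 at 14 h stood at a log2 fold change of -0.35 and lost its call (edgeR adjusted p = 0.253, between 0.00169 and 0.401 over 11 alternatives). PR1 stood at -0.05 (edgeR adjusted p = 0.815), BGL2 stood at -0.68 (edgeR adjusted p = 0.00886), PAD4 stood at 0.54 (edgeR adjusted p = 0.00652) and EDS1 at 0.46 (edgeR adjusted p = 0.0223). The sums of PR1, PR5, NPR1, PAD4 and EDS1 there include regions that entered through 14 h alone, which raises them at 14 h by construction. Their calls in that count support nothing. BGL2 gained no region. In that count 32.5% of all genes rose and 7.9% fell, with the median of all genes at 0.25 on the log2 scale.

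**Figure D4:**
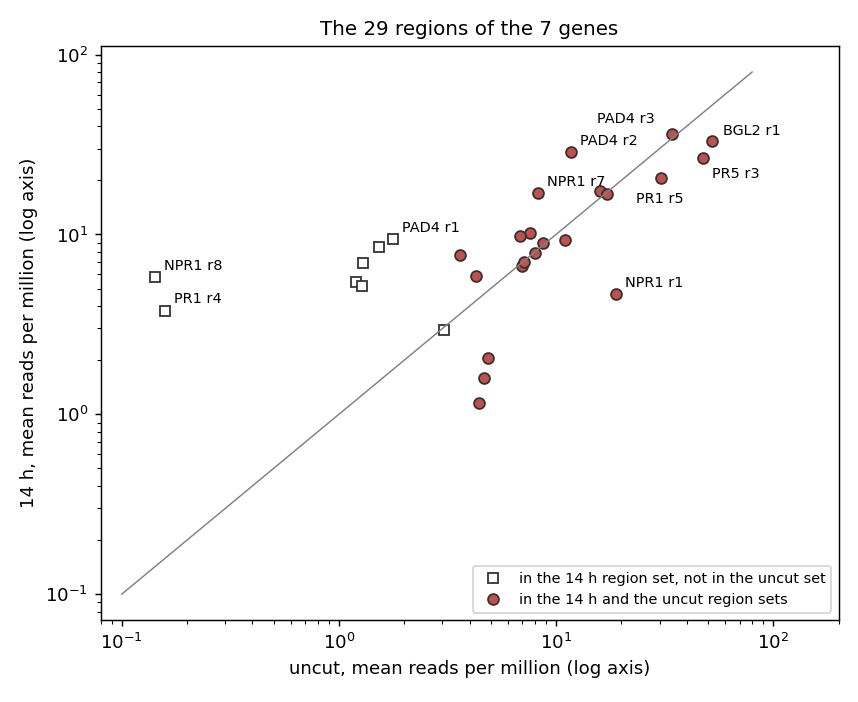
Mean CPM at 14 h against uncut roots, both on log axes, for the 29 regions of the 7 genes; the line marks equal levels and open squares are the 8 regions in the 14 h set and not in the uncut set. The PR1, BGL2 and PR5 exons and the last NPR1 region lie below the line, and 7 of the 8 open squares lie above it.

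The 7 genes were set beside 59 other genes in 7 lists, all measured. Not all of the 59 belong to the salicylate pathway, as 6 are of the jasmonate or ethylene type and 3 are neighbours of the PR genes. At 14 h, 2 of the 59 rose and 2 fell, at 16 h 0 rose and 1 fell, and at 2.5 h 0 changed in edgeR. Of all genes 3.99% rose and 8.01% fell at 14 h, and 3.16% rose and 6.36% fell at 16 h. The single genes below describe those genes and not the pathway. The median log2 fold change of the 59 was 0.05 at 2.5 h, 0.13 at 14 h and 0.05 at 16 h. Among the other 10 genes of salicylate synthesis and export, EPS1, which helps to release salicylate from its isochorismate-derived precursor, rose at 14 h, with 45.1, 33.9 and 37.2 CPM against 24.8, 25.6 and 23.2 CPM in uncut roots (log2 fold change 0.66 ± 0.16, SE; edgeR adjusted p = 0.034). PAL4, a phenylalanine ammonia-lyase of the second route to salicylate, fell at 14 h, with 21.5, 32.6 and 26.6 CPM against 51.2, 49.5 and 42.9 CPM (log2 fold change -0.83 ± 0.18, SE; edgeR adjusted p = 0.0201).

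Among the other 13 receptors and partners of NPR1, TGA6, a bZIP factor that binds PR1 regulatory DNA with NPR1, rose at 14 h, with 9.65, 12.6 and 14.4 CPM against 6.51, 4.94 and 6.40 CPM in uncut roots (log2 fold change 1.04 ± 0.29, SE; edgeR adjusted p = 0.0497). NIMIN3, a small protein that binds NPR1, fell at 16 h, with 33.7, 25.8 and 25.5 CPM against 41.8, 51.7 and 47.4 CPM (log2 fold change -0.73 ± 0.18, SE; edgeR adjusted p = 0.0332). None of the other 8 genes around EDS1, the 10 WRKY factors, the 9 genes of salicylate and pipecolate turnover or the 3 neighbours of the PR genes passed at 14 h or 16 h in edgeR. Of 6 genes of the jasmonate or ethylene type, 1 fell at 14 h, the defensin gene PDF1.2A, with 65.5, 76.8 and 60.5 CPM against 93.8, 91.5 and 92.1 CPM (log2 fold change -0.45 ± 0.12, SE; edgeR adjusted p = 0.0411); it has a near-identical neighbour in PDF1.2C, and how reads were split between them is not given in the sources used here. Each of these 5 calls was lost without any 1 uncut library (edgeR adjusted p between 0.0615 and 0.249), PDF1.2A and TGA6 also without the third library at 14 h (0.0571 and 0.0655), and TGA6 without the second (0.0539). With regions within 1 kb of a start PDF1.2A stood at -0.05, and by the gene name column alone NIMIN3 stood at -0.05, both without a call.

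**Figure D5:**
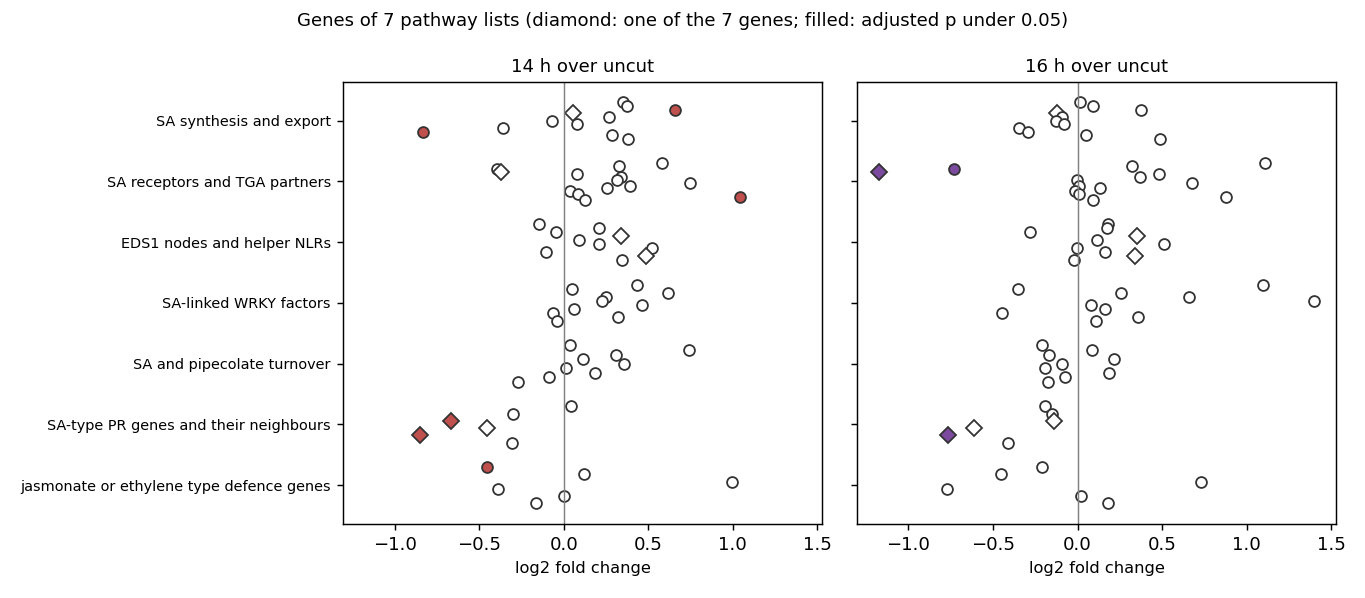
Log2 fold change over uncut roots at 14 h and at 16 h for the 66 genes of 7 lists, 1 point per gene, with diamonds for the 7 genes described here and filled symbols where the edgeR adjusted p was under 0.05. PR5 and BGL2 at 14 h, and NPR1 and PR5 at 16 h, are the filled diamonds, all on the lower side.

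For each of the 7 genes the genes of most similar pattern were taken as those with the highest Pearson r of log2(CPM + 1) over the 12 libraries, among 27648 genes. For PR1 these were AT1G30830 (r = 0.977), AT1G05963 (0.976) and ZW9 (0.959), and 1.62% of genes reached an r above 0.8. For PR5 they were AT4G36610 (0.953), AT5G51490 (0.942) and AT3G01850 (0.932), and 0.514% of genes were above 0.8. For BGL2 the first was CYP79A2 (0.957), for PAD4 CBP20 (0.941) and for EDS1 PEX11A (0.971). For NPR1 the first was AT1G08667 (0.974), which shares regions with it, and the next AT1G73050 (0.951). ICS1 had 8.62% of genes above 0.8, led by AT3G27350 (0.991), and the third library at 2.5 h, with 1 read, is the point farthest from the rest. These values describe 12 libraries that share 4 groups and carry no test.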

How the data were processed

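ATAC-seq regions of 12 Arabidopsis libraries in 4 groups were analysed, with groups and replicate numbers from the sample labels. The authors deposited raw read counts per region as whole numbers, 1 file per library. Per the file headers, the deposited tables for 2.5 h and 14 h add a signal per library, a log2 fold change, a p-value and an adjusted p-value per region, the nearest gene and a distance to its start. The submitters' processing notes name Bowtie2, SAMtools, MACS2, DESeq2, HOMER and TAIR10, with roles, versions, peak settings and any removal of duplicates not given in the sources used here. In the signal of the 14 h table, 100% of values came out as whole reads over 1 factor per library, at a tolerance of 0.01. PCR copies may be counted more than once. Coordinates are as the files give them. The gene columns of the 16 h table and 12 per-sample columns of the tables were not used.

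Regions with identical coordinates in all 12 files (99054) were given to genes by gene name and by the locus in the annotation, so that 1 region can count for 2 genes, and summed per gene. Levels are CPM on 1 scale, reads in shared regions times a TMM factor computed on gene sums over the 12 libraries. Each comparison was tested on its 6 libraries with edgeR 4.0.16 (limma 3.58.1, R 4.3.3; filterByExpr, quasi-likelihood F test, Benjamini-Hochberg adjustment, threshold 0.05), for genes and for regions, after tests on simulated data. SE is the absolute log2 fold change over the square root of F. The count test on recovered reads called 12579 genes at 14 h. Alternatives were DESeq2 1.42.0, other scalings, no filter, a replicate block, all 12 libraries in 1 fit, other region sets, and leaving out each library. All regions of the 14 h set, and the alternatives for the other genes of the lists, were added after seeing the data. No label ties replicates to separate plants, so p-values measure only the spread between libraries, which may be technical.

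The 7 genes were all described. Of their regions, those nearest the start, of highest level or past the threshold were named, and of the other genes of the lists up to 6 a comparison past the threshold. Genes of similar pattern are up to 3 per gene by Pearson r, at a mean of 10 CPM or more. Members and lists were chosen with earlier results of these data known.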

Additional observations from a re-analysis of the deposited data

How the results depend on the processing

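Of the single values of genes and regions under the alternatives, 1076 kept direction and side of the threshold, 71 lost a call, 36 gained one and 54 reversed. Of the reversals, 13, 11 and 3 were over uncut roots at 2.5 h, 14 h and 16 h, and 10, 9 and 8 between 14 h and 2.5 h, 16 h and 2.5 h, and 16 h and 14 h. In each case below the cause was not tested. Depth limits single values at both 2.5 h and 16 h. Total reads were lowest at 16 h, at 1.44 to 2.35 M, with 4.45% to 6.52% of shared regions without a read, against 1.83 to 4.78 M and 27.4% to 37.3% at 2.5 h. The NPR1 region of 63 bp in exon 4 gave no value at 16 h when an uncut library was left out, since it no longer passed the filter on low counts.

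DESeq2 called 2629 genes at 2.5 h, 5987 at 14 h and 5944 at 16 h over uncut roots, where edgeR called 97, 3620 and 2868. DESeq2 called 513 genes between 14 h and 2.5 h, 113 between 16 h and 2.5 h and 1 between 16 h and 14 h, where edgeR called 0 each. Among regions DESeq2 called 18693 at 14 h and 16823 at 16 h over uncut roots, where edgeR called 6127 and 8829, and 1443, 2048 and 6 in the 3 comparisons between times, where edgeR called 0, 0 and 1. DESeq2 called 2 of the 7 genes at 2.5 h and 4 at 14 h.

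With all 12 libraries in 1 fit, genes called were 625 at 2.5 h, 471 at 14 h and 236 at 16 h over uncut roots, 283 between 14 h and 2.5 h and 223 between 16 h and 2.5 h. Regions called were 2321 at 14 h, 1573 at 16 h, 4245 between 14 h and 2.5 h, 3827 between 16 h and 2.5 h and 0 between 16 h and 14 h. In that fit 0 of the 7 genes were called at 14 h and 0 at 16 h.

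Replicate numbers do not pair the libraries: deviations of libraries with the same number had correlations between -0.0569 and 0.0131, and 0 to 2 of 6 libraries in a comparison were closest to their own number. With the replicate block, 29 genes were called at 2.5 h, and 0, 3759 and 4295 regions at 2.5 h, 14 h and 16 h over uncut roots, and 0 regions between 16 h and 14 h. With the replicate block 1 of the 7 genes was called at 16 h, NPR1, and PR5 lost its call there. EDS1 then stood at -0.0053 at 2.5 h and at -0.0020 between 16 h and 14 h. PAD4 stood at 0.069 between 14 h and 2.5 h.

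With regions within 1 kb of a start, 0 genes were called at 2.5 h, 1276 at 14 h and 1678 at 16 h. Of the 7, 0 were called at 14 h and 1 at 16 h, PR1, which was lower. PR5 and NPR1 lost their calls at 16 h there. PAD4 then stood at -0.40 at 2.5 h, 1.69 between 14 h and 2.5 h and 1.15 between 16 h and 2.5 h, and NPR1 at 1.04 at 14 h. By the gene name column alone these 4 values were -0.40, 1.69, 1.15 and 1.04. In that count 59 genes were called at 2.5 h and 2 between 16 h and 14 h, and 1 of the 7 at 16 h, PR5. NPR1 was then called higher at 14 h (edgeR adjusted p = 0.0495), and its call at 16 h was lost (0.382). All regions of the 14 h set gave 12579 genes and 41172 regions called at 14 h.

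Scaling moved the split of calls. With total counts without TMM, 2479 genes rose and 1946 fell at 14 h, beside 1204 and 2416 on the scale used here. At 16 h 1601 rose and 1589 fell, beside 952 and 1916, with the median log2 fold change of all genes at 0.15 (14 h) and 0.11 (16 h), beside 0.05 and 0.03. At 2.5 h over uncut roots the median region stood at -0.11, and at -0.39 with TMM over the 6 libraries. With total counts PAD4 stood at 0.054 between 14 h and 2.5 h, EDS1 at -0.014 between 16 h and 14 h, the ICS1 exon 3 region at 0.075 at 14 h and the ICS1 exon 2 region at 0.038 at 16 h. With TMM over the 6 libraries PAD4 stood at 0.0084 between 14 h and 2.5 h and the PR5 exon at -0.14 at 2.5 h. DESeq2 size factors in edgeR, and no filter, each gave 2 genes called between 16 h and 14 h.

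Leaving out 1 library gave 0 to 1874 genes called at 2.5 h, 931 to 6670 at 14 h and 618 to 5221 at 16 h over uncut roots, and 0 to 12 between 16 h and 14 h. Without uncut library 1, 2 or 3 the 2.5 h comparison called 0 genes each time, that of 14 h called 931, 1103 or 1265 genes, and that of 16 h called 618, 685 or 757. Regions called were 3833 to 18287 at 2.5 h, 2759 to 14597 at 14 h, 2384 to 12573 at 16 h and 0 to 1 between 16 h and 14 h. Of the 7 genes, 0 to 4 were called at 14 h and 1 to 3 at 16 h. At 2.5 h over uncut roots the log2 fold change ranged from -0.66 to 0.0103 for BGL2, -0.12 to 0.30 for PR5 and -0.30 to 0.80 for EDS1, and for regions from -0.72 to 0.57 for the EDS1 region 151 bp from its start, -0.66 to 0.014 at the BGL2 exon, -0.12 to 0.30 at the PR5 exon and -0.83 to 0.28 at ICS1 exon 3. At 14 h it ranged from -0.064 to 0.15 for ICS1, and for regions from -0.21 to 0.17 for the EDS1 region 151 bp from its start, -0.0015 to 0.21 at ICS1 exon 2, -0.12 to 0.0996 at ICS1 exon 3 and -0.056 to 0.26 at PAD4 exon 2. At 16 h it ranged from -0.22 to 0.0177 for ICS1 and -0.36 to 0.25 for its exon 2 region. Between 14 h and 2.5 h it ranged from -0.24 to 0.39 for PAD4, -0.46 to 0.62 for EDS1 and -0.67 to 0.0054 for BGL2. Between 16 h and 2.5 h it ranged from -0.45 to 0.62 for EDS1, -0.39 to 0.23 for PAD4, -0.16 to 0.52 for BGL2, -0.075 to 0.88 for ICS1 and -0.20 to 0.50 for NPR1. Between 16 h and 14 h it ranged from -0.12 to 0.30 for PR5 and -0.10 to 0.13 for EDS1.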
